A study of Mus musculus with 3 samples.

Results

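Col5a1 encodes the alpha-1 chain of type V collagen, and its gene held more separate sites with a Tet2 peak in all 3 mast cell libraries than any other protein-coding gene. The peaks described here are all those whose midpoint lies inside the annotated span of Col5a1, and they number 33 of the 8196 peaks deposited for 3 libraries. Replicate 1 held 12 of them, replicate 2 held 10 and replicate 3 held 11. The gene was chosen by its number of peaks and their heights in these same libraries, so those values and the peaks' places are given as a description and were not tested.

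The libraries were made from mast cells grown out of the bone marrow of C57BL/6 mice and form 1 group of 3 replicates, described by the submitters as biological, with no genetic change or drug named in the labels. Marrow was kept for 4 to 6 weeks in interleukin-3 (10 ng/ml) and stem cell factor (5 ng/ml), and cultures in which over 97.5% of cells bore FcεRI and Kit were used. In CLIP, ultraviolet light (400, then 200 mJ per square cm) ties a protein to the RNA it touches, and here an antibody to the endogenous Tet2 protein then pulled the complexes down. No library from input RNA or a control antibody was analysed here, so more Tet2 on a transcript and more of that transcript in the cells cannot be told apart. The labels do not say which animals or cultures the replicates came from, so the SD given below is the spread over these libraries, and how much of it is technical is unknown.

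Type V collagen is a minor fibril-forming collagen that assembles together with type I collagen, starts new fibrils and limits their diameter. Its chains are long runs of glycine-X-Y repeats that wind into a triple helix, and the genes of this family split that repeat over many short exons. Fibroblasts and other connective tissue cells are its best known source, and loss of COL5A1 function underlies classical Ehlers-Danlos syndrome in people. Tet2 oxidises 5-methylcytosine and, unlike Tet1 and Tet3, has no CXXC zinc finger of its own for binding DNA.

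Height is the authors' value for each peak, deposited as a part of the library's summed height. All heights of a library were whole multiples of 1 step, which is called a unit here. The summed height came to 19213, 18270 and 15431 units in replicates 1, 2 and 3, and the median peak of each library stood at 4 units. No source used here says whether a unit stands for 1 read, and sequencing depth is therefore unknown.

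The Col5a1 span runs over 153 kb of chromosome 2, on the plus strand (GRCm38.p6, the assembly of mm10, chr2:27886381-28039510). The long non-coding gene Gm13372 also lies in that span, from 28017735 to 28032594, and no Col5a1 peak fell within it. None of the 33 peaks lay in the span of a second annotated gene. The lists give no strand, so a transcript from the other strand cannot be told apart. Exons, introns, UTRs and the sequence under the peaks were not analysed here.

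When peaks at most 100 nt apart were joined, the 33 peaks fell into 12 sites, which are named below by their distance from the start of the span. Of these, 10 held a peak in every library, or 83.3%, where the same rule gave 14.8% over all 5579 sites of the series. By overlap of at least 1 nt there were 14 sites, of which 8 were in every library (57.1%, against 11.1% of 5969). By either rule no other protein-coding gene had as many: the next were Csf2rb2 with 8 by distance and Gata2 with 5 by overlap. Col5a1 was chosen for its sites, so these shares describe the gene and are no test of it.

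**Figure D1:**
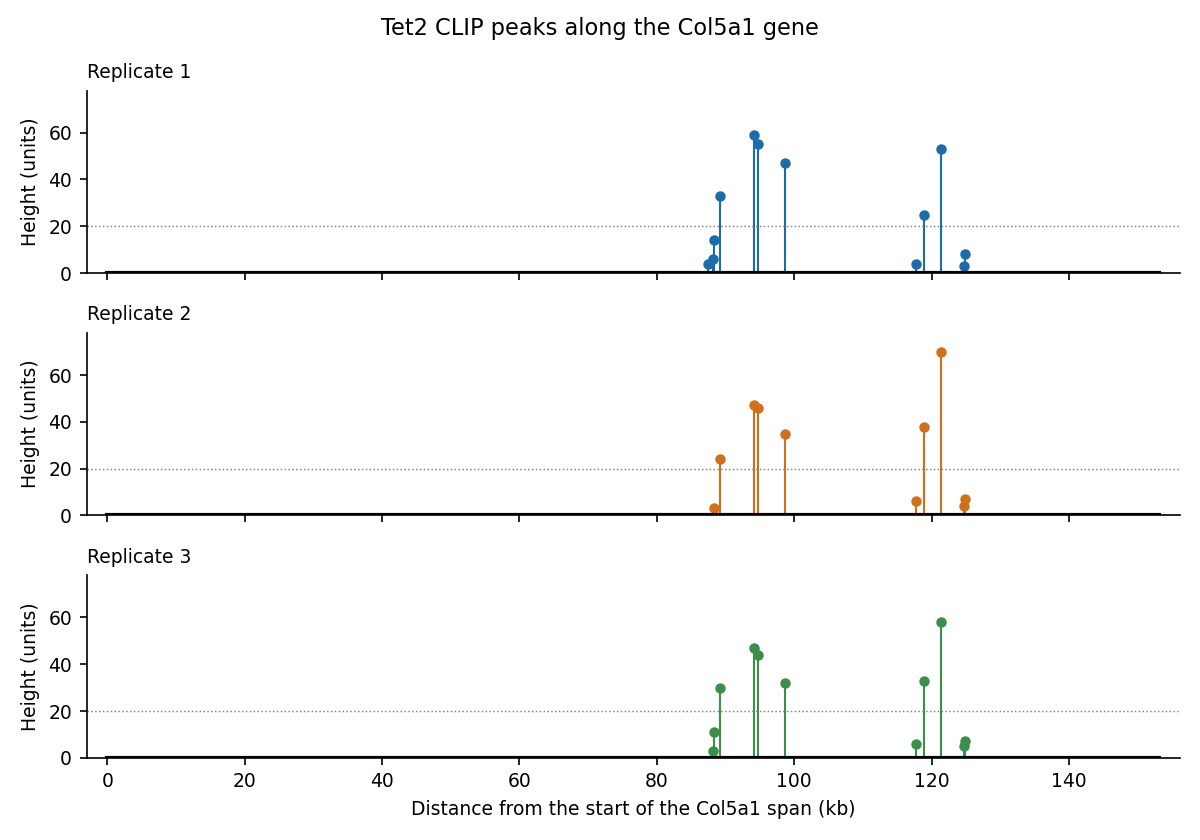
Peaks along the Col5a1 span in each of the 3 libraries: the x axis is the distance of the peak's midpoint from the start of the span in kb, the y axis is the height in units, the thick black line is the span and the dotted line marks 20 units. All peaks lie between 87.5 and 124.9 kb, in 2 stretches parted by 19009 nt without a peak, and 6 places pass the dotted line in every panel.

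The sites filled 2 short stretches in the later part of the gene. The first stretch, chr2:27973882-27985062, covered 11.2 kb and held 7 sites, and the second, chr2:28004072-28011325, covered 7.25 kb and held 5. Between them lay 19009 nt with no peak in any library. The first 87.5 kb of the span and its last 28.2 kb held none either, so that all sites fell within 24.5% of the gene's length. Outside the gene, the nearest peak on the near side was 346 kb away, a peak of 3 units in the small nuclear RNA gene Gm25541 in replicate 1. On the far side it was 569 kb away, a peak of 3 units in replicate 2 outside any gene span. Of 23 annotated neighbours within 500 kb, 2 held a peak, Gm25541 and Vav2, a guanine nucleotide exchange factor (3, 3 and 0 units in replicates 1, 2 and 3).

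Spacing within the stretches was uneven. Midpoints of neighbouring sites were 178 to 4908 nt apart inside a stretch. The closest pairs were the sites at 124.7 and 124.9 kb (178 nt), those at 88.1 and 88.3 kb (238 nt) and those at 94.1 and 94.7 kb (540 nt). Within a library, the median distance between neighbouring peaks was 1196.5, 2515.5 and 1856 nt in replicates 1, 2 and 3. Replicate 2, which lacked a peak at 87.5 and 88.1 kb, had the longest. Over the 12 sites of all libraries the median was 1195 nt, and by overlap, with 14 sites, it was 874 nt. It was 1862.75 nt when peaks within 200 nt were joined and 1694.5 nt with peaks of at least 10 units.

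Tall sites carried most of the height. Of the 12 sites, 6 reached 20 units or more, and each of the 6 did so in every library. Over all sites of the series, 2.24% reached that height in any library and 1.27% in every library. They held 87.5%, 92.9% and 88.4% of the Col5a1 height in replicates 1, 2 and 3 (89.6% ± 2.88, SD, n = 3). Merged over the libraries they covered 115 nt, or 0.0751% of the span. Tall and low sites were well apart: no tall site was under 24 units in any library, and no other site was over 14.

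The tallest site lay at 121.4 kb, in the second stretch (chr2:28007794-28007824). It stood at 53, 70 and 58 units in replicates 1, 2 and 3, or 0.345% ± 0.0600 of a library's height (SD, n = 3). Replicate 1 was the lowest there, and it was also the library whose peak did not overlap the others: its peak ran from 28007812 to 28007824, and those of replicates 2 and 3 from 28007794 to 28007804 and at 28007796 alone.

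Its neighbour at 118.9 kb (chr2:28005270-28005286) stood at 25, 38 and 33 units, or 0.184% ± 0.0467 of the height (SD, n = 3). Replicate 1 was again the lowest. The peaks were 2, 6 and 1 nt wide, and that of replicate 3, at 28005270, lay apart from the overlapping peaks of the other libraries. These were the only tall sites of the gene at which the 3 libraries did not share a common base by overlap.

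In the first stretch, the site at 94.1 kb (chr2:27980502-27980516) stood at 59, 47 and 47 units, or 0.290% ± 0.0281 (SD, n = 3), and was the tallest of replicate 1. The site at 94.7 kb (chr2:27981037-27981060) stood at 55, 46 and 44 units, or 0.274% ± 0.0196. As shares of a library these were the steadiest of the tall sites, with a coefficient of variation of 9.69% and 7.14%, against 25.4% at 118.9 kb.

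The other tall sites of that stretch were lower. The site at 98.7 kb (chr2:27985049-27985062) stood at 47, 35 and 32 units, or 0.215% ± 0.0272 (SD, n = 3). The site at 89.2 kb (chr2:27975595-27975608) stood at 33, 24 and 30 units, or 0.166% ± 0.0319. At all 4 tall sites of the first stretch replicate 2 had the lowest share of library height, and at both of the second stretch replicate 1 had it.

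Ordered by mean share, most neighbours among the tall sites differed in their means by less than the larger of their SDs over libraries. That SD takes no account of both sites being measured in the same libraries, and the spread of within-library differences was not computed. The site at 121.4 kb led that at 94.1 kb by 0.0553 percentage points, less than its SD of 0.0600, and was higher in 2 of 3 libraries. The sites at 94.1 and 94.7 kb differed by 0.0152 points, less than the larger SD of 0.0281. Within libraries, however, that at 94.1 kb was higher in 3 of 3. The step from 94.7 to 98.7 kb, 0.0599 points, was larger than either SD, and the libraries' values did not overlap. The sites at 98.7, 118.9 and 89.2 kb overlapped one after the other. The site at 98.7 kb was higher than that at 118.9 kb in 1 of 3 libraries. That at 118.9 kb was higher than that at 89.2 kb in 2 of 3. The next step, from 89.2 kb down to 88.3 kb, was 0.112 points and again without overlap.

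**Figure D2:**
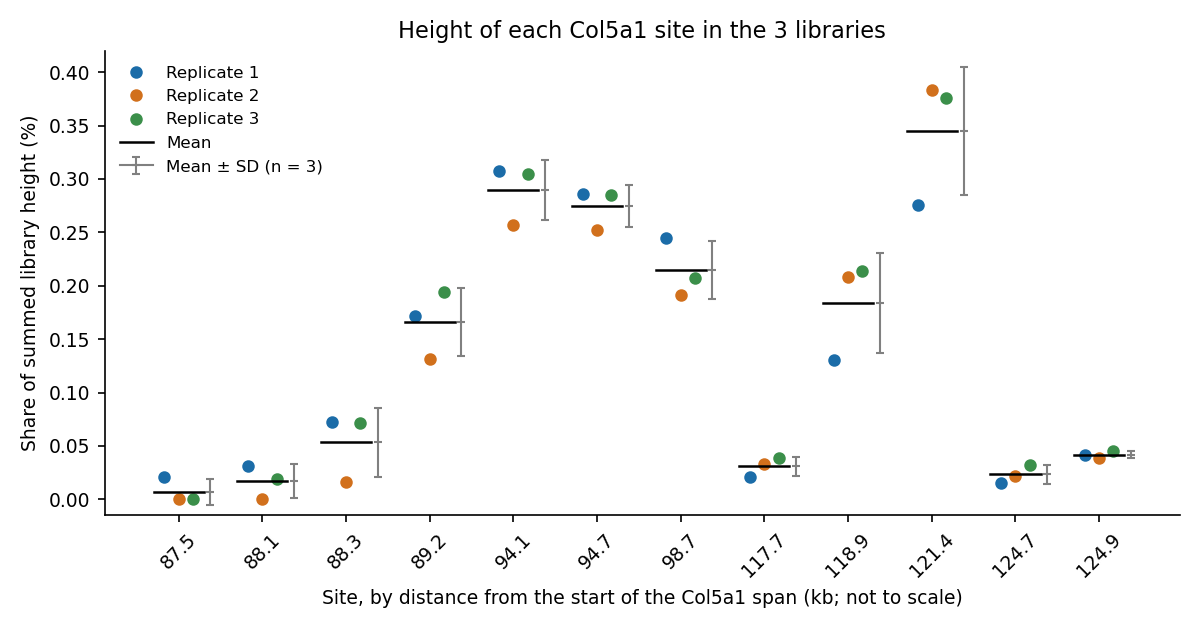
Share of summed library height, in percent, at each of the 12 Col5a1 sites, placed in order along the gene and labelled with the distance from the start of the span in kb. Points are the 3 libraries, black bars the mean and grey bars the mean ± SD (n = 3). The 6 tall sites have means between 0.166% and 0.345%, and the other 6 lie at or below 0.0535%.

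The 6 low sites lay toward the ends of the stretches, and none lay between tall sites of the same stretch. In the first stretch, the site at 88.3 kb stood at 14, 3 and 11 units, the widest relative spread of any site found in all 3 libraries (0.0535% ± 0.0321, SD, n = 3). The site at 88.1 kb was in 2 libraries (6, 0 and 3 units) and that at 87.5 kb only in replicate 1, at 4 units. In the second stretch all 3 low sites were in every library: that at 117.7 kb stood at 4, 6 and 6 units, that at 124.7 kb at 3, 4 and 5, and that at 124.9 kb at 8, 7 and 7. A peak listed in no library says only that none was called there, since nearly all deposited peaks stand at 3 units or more.

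The balance between the stretches moved between libraries. The first stretch held 70.1%, 55.4% and 60.5% of the Col5a1 height in replicates 1, 2 and 3 (62.0% ± 7.48, SD, n = 3), and the second held the rest. The share of the whole gene moved less: 1.62%, 1.53% and 1.79% of the library's height, or 311, 280 and 276 units. Across sites found in both libraries, log2 heights correlated at Pearson r of 0.874 for replicates 1 and 2 (10 sites), 0.948 for replicates 1 and 3 (11 sites) and 0.938 for replicates 2 and 3 (10 sites). Spearman's rank correlation was 0.855, 0.918 and 0.927. These points are sites of 1 gene that share a library, so the values are a description. At the tall sites, the shares of any pair of libraries differed by at most 1.64-fold.

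Col5a1 peaks were mostly narrow. Their median width was 15 nt, with a range of 1 to 68 nt, against 53 nt over the 8163 other peaks of the series. At 20 units or more, the 18 Col5a1 peaks had a median width of 11.5 nt and the 269 other peaks one of 10 nt. At 3 or 4 units, the 6 Col5a1 peaks had a median of 20.5 nt and the 5222 others one of 62 nt, and at 5 to 9 units the medians were 26 and 47 nt. The tall peaks of the gene were thus about as wide as tall peaks elsewhere, while its few low peaks were narrower by their medians.

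**Figure D3:**
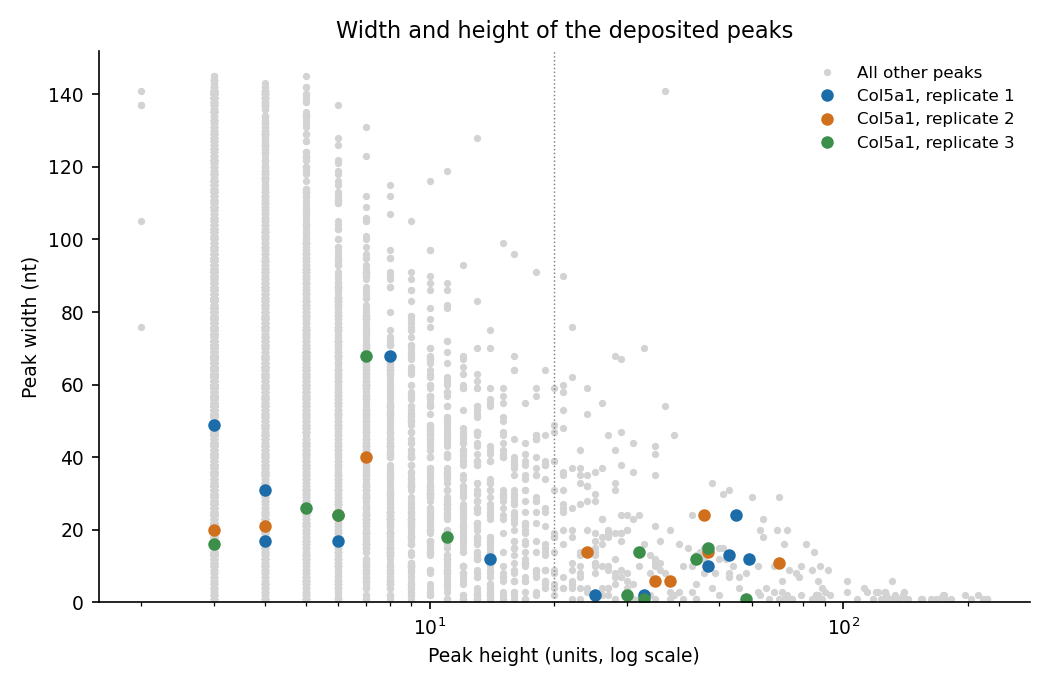
Width in nt against height in units (log scale) for each deposited peak. Grey points are the 8163 other peaks of the 3 libraries, coloured points the 33 Col5a1 peaks by library, and the dotted line marks 20 units. To the right of that line Col5a1 peaks are 1 to 24 nt wide and lie among the other tall peaks.

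Several site borders fell on the same base in all libraries. Of the 8 sites shared by overlap, 4 had a common start (27975595, 27981037, 27985049 and 28011258), against 22.8% of the 661 such sites in the series. A further 2 had a common end (28004095 and 28011138), where 19.5% did. Together 6 of 8 had a common start or end, against 36% of all. With 8 sites in 1 gene this is a description. How reads were collapsed or placed was not analysed here, and reads with more than 1 match in the genome cannot be told apart from the rest.

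Set against all 21900 protein-coding genes, of which 3086 (14.1%) held a peak in 1 library or more, Col5a1 had rank 4 by number of peaks and rank 1 by summed height, at 1.65% ± 0.130 of a library (SD, n = 3). Next by height came Jarid2, a cofactor of Polycomb repressive complex 2, at 0.771%. By its tallest peak Col5a1 stood at rank 8. Per 10 kb of span, a value that depends on span length, it had rank 617. Among the 1707 genes with spans of 100 to 250 kb, 23.0% of which held a peak, it was first by number of peaks, and Runx1, with 18 peaks, came next. Without replicate 2 its rank by number of peaks was 1, and without replicate 3 it was 5.

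Col5a1 also stood first in the number of tall sites. Just 7 protein-coding genes, or 0.032%, held 2 or more sites that reached 20 units in any library, and none but Col5a1 held more than 3. Next was another collagen gene, Col6a2, with 3. Csf2rb2 was among the genes with 2. Counting only sites at 20 units in every library, Col5a1 held 6 and no other gene more than 1. Of the 138 peaks of 20 units or more in protein-coding genes, 18 lay in Col5a1, 6 in each library.

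**Figure D4:**
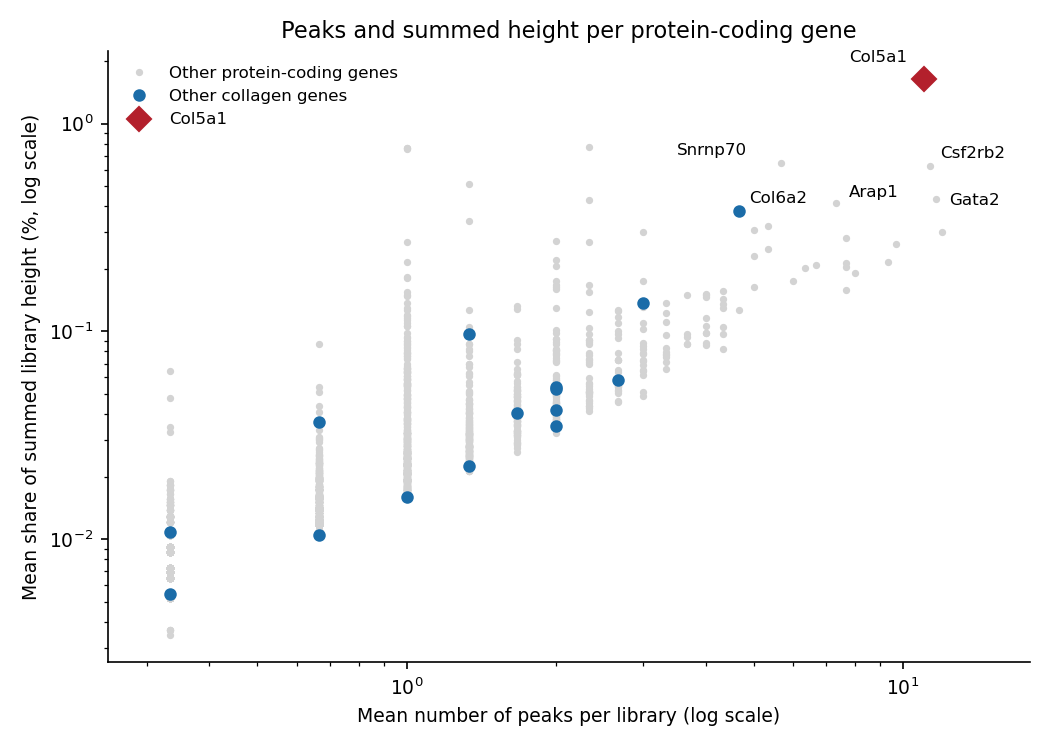
Mean number of peaks per library (x axis, log scale) against mean share of summed library height in percent (y axis, log scale) for the 3086 protein-coding genes with a peak. Grey points are genes, blue points the 15 other collagen genes with a peak and the red diamond Col5a1, which lies at 11 peaks and 1.65%. Named points are the 5 genes nearest to Col5a1 by peaks, shared sites and height.

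The genes most like Col5a1 were sought over 4 values averaged or counted over the 3 libraries: peaks per library, sites shared by all libraries, summed height and tallest peak, each as log2 of the value plus 1. In order of distance they were Snrnp70, the U1 small nuclear ribonucleoprotein component (1.87), Csf2rb2, an interleukin-3 receptor beta chain (2.06), Arap1, a regulator of Arf GTPases (2.69), the mast cell transcription factor Gata2 (2.83) and Col6a2 (2.97). None was close. Snrnp70 took 0.642% of the height, and most of it was 1 peak of 87, 88 and 84 units. Csf2rb2 had about as many peaks as Col5a1 (11, 12 and 11), but they reached 29, 27 and 20 units. The Csf2rb2 peaks were spread over 76.0% of a span of 23.2 kb, against 24.5% of 153 kb for Col5a1. In bases the Col5a1 sites were spread further, over 37.4 kb, which is more than the whole Csf2rb2 span. How reads were shared between Csf2rb2 and its close copy Csf2rb is not known here. Gata2 (14, 12 and 9 peaks) reached 18, 11 and 15 units, and 8 of its 35 peaks also lay in the span of Gm38708.

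Other chains of fibril-forming collagens also held peaks, though low ones. Of 10 genes for type V partners and other fibrillar collagens, 8 (80%) held a peak in 1 library or more, where 14.1% of all protein-coding genes did, 6 in at least 2 libraries and 4 in all 3 (background for all 3, 3.16%). The median gene of that list held 4 peaks over the 3 libraries, and the median protein-coding gene held 0. Here and below, the shares of all protein-coding genes are not matched for span length. Among genes with spans of 100 to 250 kb, 23.0% held a peak. Col3a1, the chain of type III collagen, was the tallest, at 17, 7 and 9 units. Col1a1 and Col1a2, the chains of type I collagen with which collagen V assembles, reached 7, 4 and 6 units and 4, 3 and 5 units. Col11a1, the chain most akin to Col5a1, reached 4, 6 and 5 units.

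The direct partners of the Col5a1 chain were near the lowest heights of the lists. Col5a2, whose product joins that of Col5a1 in the common collagen V trimer, held 2 peaks of 3 units in replicate 1 and none in the others. Col5a3, another chain of collagen V, reached 3, 3 and 0 units. Col27a1 reached 0, 3 and 3 units, and 2 of its 6 peaks also lay in the span of Gm52743. Col2a1 and Col24a1 held no peak.

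Among the 33 other collagen genes, 7 held a peak (21.2%, where 14.1% of all protein-coding genes did). That share was below the 23.0% of genes with spans of 100 to 250 kb. Of the 7 collagen genes, 3 held a peak in all libraries (background 3.16%), and the median gene of the 33 held 0 peaks. Col6a2, a chain of the microfibrillar collagen VI, held 5 sites within 9.70% of its span. Its sites at chr10:76611830-76611836 and chr10:76611948-76611986 stood at 17, 28 and 14 units and at 16, 28 and 15, and its other tall site at chr10:76611423-76611442 stood at 11, 20 and 6. All 3 reached 20 units in replicate 2 alone, where its height was 0.536% of the library, against 0.271% and 0.331% in replicates 1 and 3. Its median peak width was 12 nt. Col6a6 reached 12, 16 and 19 units, Col4a2, a basement membrane chain, 7, 4 and 8, and Col6a1 4, 5 and 0. Col15a1 held a peak of 13 units in replicate 2 and none in the others, and its peaks also lay in spans of other genes. Col5a1 held 33 peaks, and the 43 other collagen genes together held 77. Its height of 1.65% of a library stood above their sum of 0.998% ± 0.171 (SD, n = 3).

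Genes that make, cut and bind collagen were nearer to the background than the fibrillar collagens were. Of 36 genes for folding, modification, secretion and processing, 9 held a peak (25%, where 14.1% of all protein-coding genes did). In all libraries 3 of the 36 did (background 3.16%). Furin, a protease that cleaves propeptides including that of the pro-alpha-1(V) chain, held 8, 9 and 6 peaks that reached 9, 10 and 7 units. The subunits of the prolyl hydroxylase that stabilises the triple helix reached 4, 5 and 6 units (P4hb) and 3, 3 and 3 (P4ha1). Mia3, which helps load procollagen into transport carriers, reached 5, 0 and 4 units, and Lox, a cross-linking enzyme of fibrils, 0, 4 and 8.

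Of 20 receptors and matrix partners, 5 held a peak (25%, against 14.1% of all protein-coding genes), 1 of them in all libraries (background 3.16%). That was Fn1, fibronectin, at 10, 16 and 16 units. The collagen receptor Ddr1 reached 0, 4 and 4 units, the endocytic collagen receptor Mrc2 3, 0 and 3, and Hspg2, perlecan, 3, 3 and 0. Among 10 matrix proteases and their inhibitors, such as Mmp9 and Timp1, none held a peak, where 14.1% of all protein-coding genes did.

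Since collagens are markers of connective tissue cells, peaks in marker genes of both cell types were counted. Of 20 fibroblast or stromal markers, 10 held a peak in 1 library or more (50%, where 14.1% of all protein-coding genes did). Of these 10, 5 did in all 3 libraries (background 3.16%). The summed height of the 10 was 140, 175 and 109 units in replicates 1, 2 and 3. Col5a1 was not on that list, and on its own it held 311, 280 and 276 units. Collagens made up 7 of those 10 genes, and Fn1, Loxl1 and Pdgfrb were the rest. Pdgfra, Dcn, Lum, Sparc, Thy1, Postn, Fbn1, Cxcl12, Lepr and Acta2 held no peak. Of 21 mast cell markers listed, 20 were among the gene spans used and Tpsab1 was not. Of those 20, 11 (55%, against the same 14.1%) held a peak, 9 of them in all 3 libraries (background 3.16%). The summed height of the 11 was 337, 312 and 271 units. These 11 were Kit, Cpa3, Hdc, Gata1, Gata2, Mitf, Tpsb2, Slc18a2, Il1rl1, Csf2rb and Csf2rb2, while Fcer1a, Ms4a2, Fcer1g, Mcpt1, Mcpt2, Mcpt4, Mcpt8, Cma1 and Siglecf held none. All 3 peaks of Cpa3 and the 2 peaks of Gata1 also lay in spans of other annotated genes. A gene without a peak can still be expressed, and in cells lysed together, fewer cells of a type and less RNA per cell cannot be told apart. The part of other cells in the Col5a1 peaks was not tested.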

How the data were processed

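Tet2 CLIP of mouse mast cells was analysed in 3 libraries of 1 group. Named in the submitters' processing notes are the tools cutadapt 1.9 and STAR 2.4.0i and the build mm10. Per the labels' protocols, a valley-seeking algorithm called the peaks, with settings not given in the sources used here. Values are a signal, for which the authors deposited each peak's start, end and normalized height per library. Heights sum to 1 per library and were whole multiples of a step, with every peak less than 0.05 of it away from a whole number. Starts were read as 0-based and are printed 1-based.

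Gene spans came from the RefSeq table of GRCm38.p6 (49997 spans), and the strand of Col5a1 from the matching promoter table. Sites were formed by overlap of at least 1 nt or by a distance of at most 100 nt. Site merging and gene assignment were tested on simulated data first. Apart from a pair of peaks with touching ends, the simulated sites and gene spans lay well apart. Close sites with a gap between them and overlapping gene spans were therefore not tried. Python 3.11.15 and pandas 2.3.3 were used. The peaks and gene lists were chosen with earlier results of these data known. Named by rule were genes of the collagen and matrix lists with a peak in at least 2 libraries or among the 5 tallest, and the 5 genes nearest to Col5a1. With 1 group and no control, no test was run. Alternatives were other rules for sites, spans and heights, and leaving out each library. Other members of the lists, cell type markers included, are named as examples, to complete a count or for having no peak.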

Additional observations from a re-analysis of the deposited data

How the results depend on the processing

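Assignment by any overlap with the span changed none of the values tried. With peaks of at least 5 units, Col5a1 held 5 sites in all 3 libraries by overlap instead of 8. With peaks of at least 10 units it held 6.67 peaks per library instead of 11, 9 sites instead of 14 and 4 in all libraries, the tall sites took 96.9% of its height instead of 89.6%, and the median distance between sites rose from 874 to 1694.5 nt. Joining peaks within 200 nt gave a median distance of 1862.75 nt. By sites in all libraries the gene's rank was 1 instead of 4, and by peaks per 10 kb it was 617. With a library left out, its rank by number of peaks ran from 1 to 5. Of the 43 other collagen genes, 15 held a peak in any library (34.9%, against 14.1% of all protein-coding genes) and 7 in all (background 3.16%). Counts of low sites are limited by the lowest heights the lists hold, 2 or 3 units. Libraries could not be paired between groups because there is 1 group only. Sites measured in the same library were compared as a description, and no paired test was run on them.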
